A study of Sus scrofa with 15 samples.

Results

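The genes described here make, carry, sense and remove retinoic acid, and were measured as RNA in the testis of 21-day-old male piglets raised on 5 diets. They were taken by symbol from a list of 9 names (STRA6, RBP4, ALDH1A1, ALDH1A2, CRABP1, CRABP2, CYP26B1, RARA and RARB). Of these, 8 were found among the 30476 genes of the table. RARB was listed by its Ensembl identifier alone (ENSSSCG00000011212), which the gene name table pairs with that symbol, so its values are given beside those of the 8 members and are left out of every count. In the RefSeq annotation of Sscrofa11.1, STRA6 (chr7:59317930-59347274) and CRABP1 (chr7:47602316-47608865) lie on the same chromosome, as do ALDH1A1 (chr1:226163347-226217342) and ALDH1A2 (chr1:113932722-114037059). RBP4 is at chr14:105037360-105044552, CRABP2 at chr4:93388198-93393861, RARA at chr12:22047449-22085759 and RARB at chr13:12336387-12507688. No position was taken for CYP26B1.

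Retinoic acid is the active form of vitamin A. Retinol travels in blood on RBP4, enters cells through the receptor STRA6, is oxidized to retinaldehyde and then, by retinaldehyde dehydrogenases of the ALDH1A family, to retinoic acid. CRABP1 and CRABP2 bind retinoic acid inside the cell, the nuclear receptors RARA and RARB act on target genes together with retinoid X receptors, and enzymes of the CYP26 family break it down. In the testis the signal is known for driving spermatogonial differentiation and entry into meiosis, and CYP26B1 is known for keeping retinoic acid away from germ cells of the fetal testis.

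The study asked whether soy formula or its isoflavone genistein acts like estrogen on the neonatal testis. Piglets suckled until day 2 and were then fed from bowls until day 21. The diets were bought sow milk in the Sow group, a formula made from cow's milk in Milk and one made from soy in Soy. M + E2 had the formula of Milk with 2 mg/kg/d of estradiol (E2), and M + G had that formula with 84 mg of genistein per L of diet. Each group had 3 libraries, 1 per piglet, and M + E2 served as the positive control. Piglets of many litters were mixed over the groups.

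The table held 6097552 to 9488579 counted reads for each library (median 8198038). Sow 2 was left out of all tests, so Sow enters them with 2 libraries, while levels are given for all 15. Levels are CPM, the gene's reads scaled to a common library size with TMM factors, and they are not divided by gene length, so they are compared between libraries and not between genes. The tissue label was checked against marker genes. Summed Leydig cell markers (5 of 6 in the table) ranged from 10394 to 24754 CPM, Sertoli cell markers (8 of 8) from 1249 to 3034 CPM and germ cell markers (6 of 8) from 103 to 285 CPM. Endothelial markers (4 of 4) ranged from 211 to 1101 CPM, macrophage markers (4 of 4) from 65.2 to 194 CPM, erythroid markers (4 of 5) from 239 to 1481 CPM and mesothelial markers (2 of 5) from 3.07 to 9.81 CPM. The 3 genes of a liver list summed to 463 to 1169 CPM, of which APOA1 made up 450 to 1151 CPM. In 3 libraries, markers of peritubular myoid and smooth muscle cells (5 of 5) were far above the rest. These summed to 3238 CPM in Milk 2, 4007 CPM in Soy 3 and 2376 CPM in M + G 2, against 284 to 988 CPM in the other 12 libraries. Markers of rete testis, efferent duct and epididymal epithelium (4 of 6) summed to 33.2 CPM in M + G 2, 10.7 CPM in M + G 3 and 4.87 CPM in M + G 1, against 0.495 to 3.49 CPM elsewhere. Because the tissue was bulk, fewer cells of a type and less RNA per cell cannot be told apart in any of the values that follow.

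All 8 members and RARB passed the expression filter. Over the 5 diets together, 0 of the 8 members reached an adjusted p of 0.05 in edgeR's quasi-likelihood F test, where 10 of the 15634 genes tested did (0.064%). At an unadjusted p below 0.05 there were 4 members, STRA6, RARA, ALDH1A1 and CYP26B1, against 18.1% of all genes. DESeq2's likelihood ratio test put 3 of these, STRA6, RARA and ALDH1A1, at an adjusted p of 0.05 or less, as it did 6.77% of all genes. No member was called in any of the 8 comparisons of a pair of diets, where a call needed both an adjusted p no higher than 0.05 and a 2-fold difference, and edgeR's exact test and DESeq2's test on each pair also called 0. The genes differed widely in how much piglets of 1 diet varied. The biological coefficient of variation, which is the spread between libraries of a group beyond counting error, was 15.0% for RARA, 27.1% for CYP26B1, 29.8% for ALDH1A2 and 35.7% for STRA6. It reached 54.1% for ALDH1A1, 54.3% for RBP4, 64.8% for CRABP1 and 93.1% for CRABP2. RARA varied more than 11.3% of the genes tested, and CRABP1 and CRABP2 more than 98.9% and 99.8% of them.

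**Figure D1:**
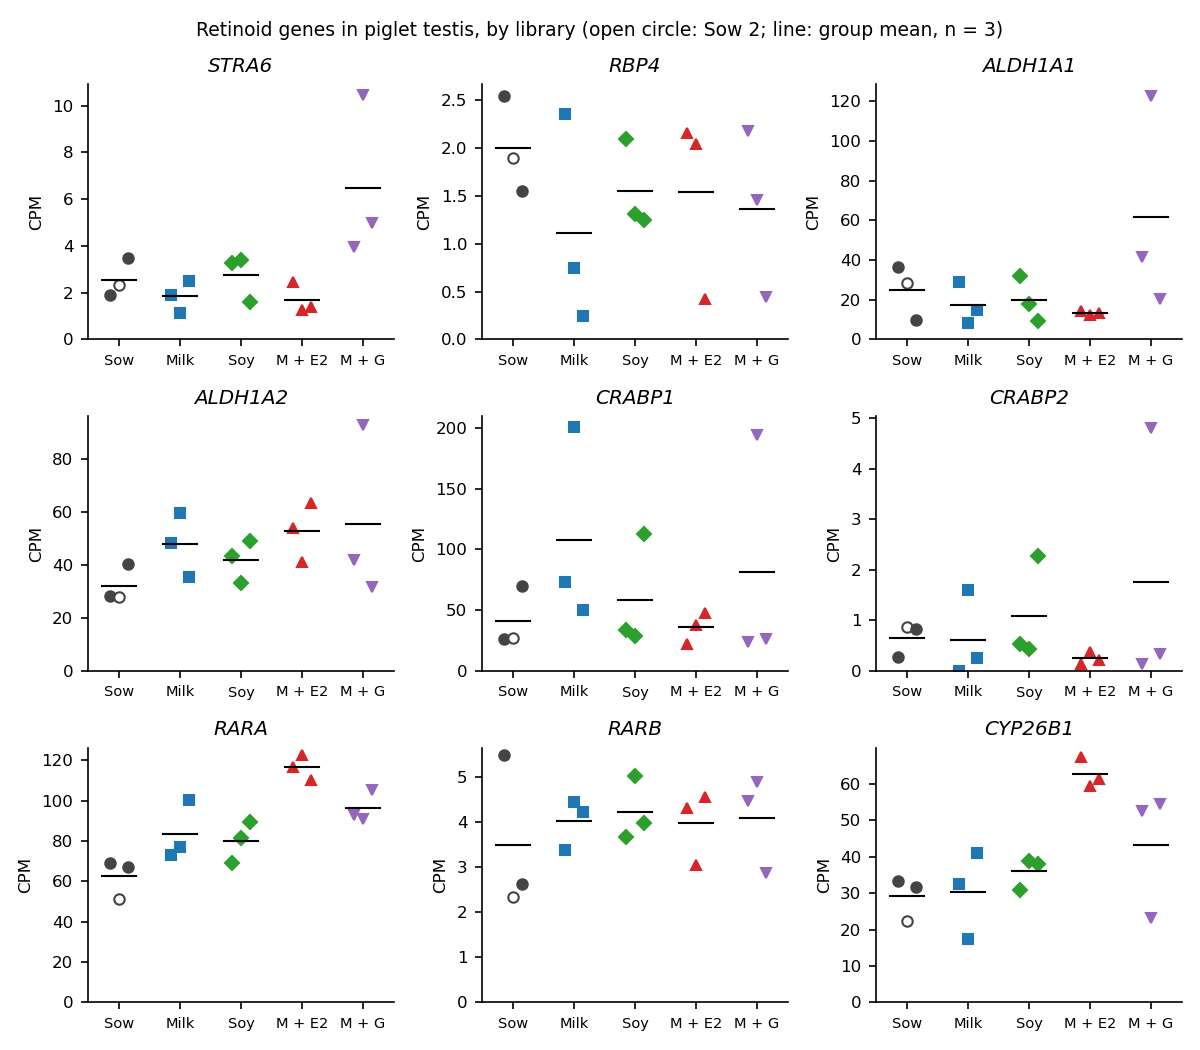
Level in CPM (linear axis from 0) of the 8 members and RARB in each of the 15 libraries, by diet on the horizontal axis; each point is 1 piglet, the open circle is Sow 2 and the line is the mean of 3 libraries. CYP26B1 and RARA are highest in the 3 M + E2 libraries, STRA6 in the 3 M + G libraries, and CRABP1 stands out in Milk 2 (201 CPM), M + G 2 (194 CPM) and Soy 3 (112 CPM).

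STRA6, the membrane receptor that takes up retinol from RBP4, was highest in M + G, the milk formula with added genistein. It measured 3.97, 10.4 and 5.0 CPM in M + G 1 to 3, against 1.92, 1.11 and 2.48 CPM in Milk 1 to 3. The other levels were 1.88, 2.33 and 3.47 CPM in Sow (unnumbered, 2 and 3), 3.28, 3.39 and 1.59 CPM in Soy (unnumbered, 2 and 3) and 2.45, 1.27 and 1.38 CPM in M + E2. All 3 M + G libraries lay above the 12 others. M + G exceeded Milk by 1.82 on the log2 scale (SE 0.46, adjusted p = 0.940 by edgeR's quasi-likelihood test) and Sow by 1.24 (SE 0.51, adjusted p = 0.174), in both cases at an unadjusted p below 0.05. Over the 5 diets STRA6 had the smallest p of the members (adjusted p = 0.195, rank 296 of 15634). The gene was counted on few reads, 9 to 20 in Milk and 31 to 100 in M + G. Without M + G 2 the difference from Milk was 1.29 and that from Sow 0.70 (adjusted p = 0.739 and 0.385).

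The epithelial markers, like STRA6, were highest in the M + G libraries. Outside M + G the lowest library was Milk 2 for both (marker sum 0.495 CPM, STRA6 1.11 CPM), while the highest library differed. The highest marker sum there, 3.49 CPM in Sow unnumbered, went with 1.88 CPM of STRA6. The highest STRA6 there, 3.47 CPM in Sow 3, went with a marker sum of 1.79 CPM. EPCAM, a surface protein of epithelial cells, measured 2.69, 21.6 and 4.55 CPM in M + G 1 to 3 and 0.114 to 1.61 CPM in the 12 other libraries. In M + G against Milk the 3 tested epithelial markers were higher in all M + G libraries than in all Milk libraries, with a median difference of 4.57 on the log2 scale. PAX2 was listed at 0 in 5 of the libraries outside M + G. The part of these cells in the level of STRA6 was not tested.

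RBP4, the blood carrier of retinol, was near the limit of detection. It was counted on 2 to 19 reads per library, and its level ran from 0.248 CPM in Milk 3 to 2.55 CPM in Sow unnumbered. Sow had the highest group mean (2.00 ± 0.51 CPM, SD, n = 3), followed by Soy (1.55 ± 0.47), M + E2 (1.54 ± 0.97), M + G (1.36 ± 0.87) and Milk (1.12 ± 1.11). Libraries of every group overlapped, and the test over the 5 diets gave an adjusted p of 0.876.

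ALDH1A1, a retinaldehyde dehydrogenase that Sertoli cells are known to express in the mouse, ranged over 14.8-fold between libraries. It measured 41.5, 123 and 20.3 CPM in M + G 1 to 3 and 28.9, 8.29 and 15.0 CPM in Milk 1 to 3. Sow had 36.4, 28.3 and 9.57 CPM (unnumbered, 2 and 3), Soy had 31.9, 17.6 and 9.44 CPM (unnumbered, 2 and 3) and M + E2 had 14.4, 12.4 and 13.2 CPM. M + G 2 stood apart, at 2.96 times the next library. M + G 1 was the second highest of the 15, above every library of the other diets, and M + G 3 lay within the range of Sow, Milk and Soy. M + G exceeded Milk by 1.83 on the log2 scale (SE 0.67, adjusted p = 0.940), at an unadjusted p below 0.05. Without M + G 2 the difference was 0.83 (adjusted p = 0.740), and the adjusted p over the 5 diets went from 0.239 to 0.561. The M + E2 piglets were the most alike, with a mean of 13.3 ± 1.0 CPM (SD, n = 3).

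ALDH1A2, the retinaldehyde dehydrogenase that germ cells are known to express in the mouse, varied less. It measured 28.2, 28 and 40.3 CPM in Sow (unnumbered, 2 and 3), 48.4, 59.5 and 35.5 CPM in Milk and 43.3, 33.1 and 49.0 CPM in Soy (unnumbered, 2 and 3). M + E2 had 53.9, 41.2 and 63.3 CPM and M + G had 41.8, 93.0 and 31.6 CPM. The Sow mean was the lowest, at 32.2 ± 7.0 CPM (SD, n = 3), and all M + E2 libraries lay above all Sow libraries, but the difference of 0.56 on the log2 scale did not pass the test (SE 0.39, adjusted p = 0.326). M + G 2 was again the highest library. Over the 5 diets the adjusted p was 0.663.

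**Figure D2:**
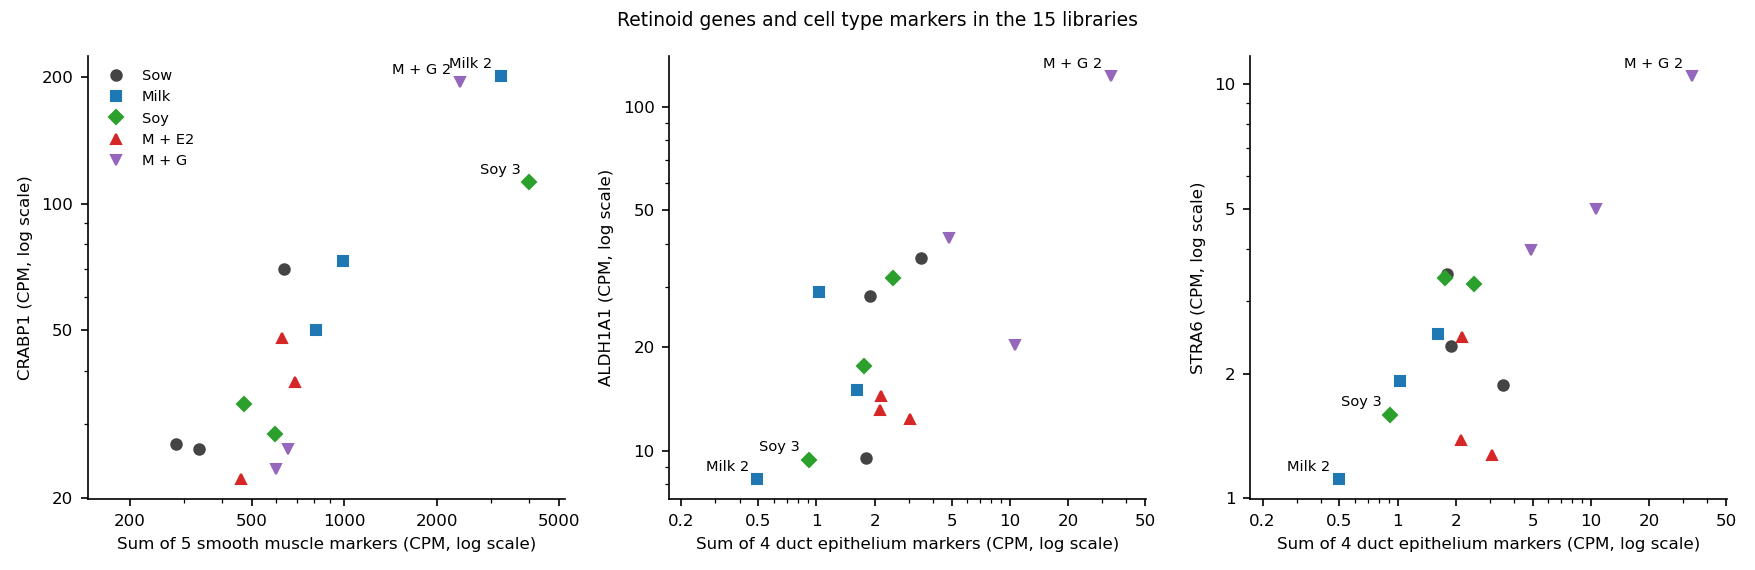
Level of CRABP1 against summed markers of peritubular myoid and smooth muscle cells (left), and of ALDH1A1 (middle) and STRA6 (right) against summed markers of duct epithelium, in CPM on log axes; each point is 1 of the 15 libraries, with shape and colour for the diet. Milk 2, Soy 3 and M + G 2 hold the highest values of both CRABP1 and the smooth muscle markers, and M + G 2 the highest of both STRA6 (10.4 CPM) and the epithelial markers (33.2 CPM).

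CRABP1, which binds retinoic acid in the cytoplasm, was set apart by 3 libraries from 3 different diets. Its level was 201 CPM in Milk 2, 194 CPM in M + G 2 and 112 CPM in Soy 3. In the same groups the other libraries had 73.2 and 50.1 CPM (Milk 1 and 3), 23.4 and 26.1 CPM (M + G 1 and 3) and 33.5 and 28.3 CPM (Soy unnumbered and 2). Sow had 26.2, 26.8 and 70.1 CPM (unnumbered, 2 and 3), and M + E2 had 22.2, 37.7 and 48.0 CPM. The 3 libraries with the most CRABP1 were those with the most smooth muscle marker RNA. All M + E2 libraries lay below all Milk libraries, but the difference did not pass the test (log2 difference −1.60, SE 0.82, adjusted p = 0.313). Of the 5 smooth muscle markers, 3 were also lower in all M + E2 libraries than in all Milk libraries, and the median difference of the 5 was −1.52. Their part in the level of CRABP1 was not tested.

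CRABP2, which passes retinoic acid on to its receptors, had the same 3 highest libraries. It was counted on 46 reads in M + G 2 (4.80 CPM), 20 in Soy 3 (2.27 CPM) and 13 in Milk 2 (1.61 CPM), and on 0 to 7 reads in the other 12 libraries. In Milk 1 it was counted on 0 of 7385856 reads, which allows up to 0.443 CPM on the same scale, and such limits cover counting error only. Among the 15328 genes that passed the filter over all 15 libraries, 5.03% had these 3 libraries as their highest, and 4.03% had M + G 2 as the single highest. Of the 8 members, 2 (CRABP1 and CRABP2) had the first pattern and 4 (STRA6, ALDH1A1, ALDH1A2 and CRABP2) the second. These libraries were singled out after their values were seen, so the counts are a description.

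CYP26B1, the enzyme that breaks down retinoic acid, was highest in the piglets given estradiol. It measured 67.5, 59.3 and 61.4 CPM in M + E2 1 to 3, against 32.5, 17.3 and 40.9 CPM in Milk and 33.4, 22.3 and 31.6 CPM in Sow (unnumbered, 2 and 3). Soy had 31.0, 38.9 and 38.0 CPM (unnumbered, 2 and 3), and M + G had 52.4, 23.2 and 54.4 CPM. All 3 M + E2 libraries lay above the 12 others, and Milk 2, Sow 2 and M + G 2 were the lowest. M + E2 was 2.04-fold Milk (log2 difference 1.03, SE 0.31, adjusted p = 0.196) and 1.84-fold Sow (log2 difference 0.88, SE 0.36, adjusted p = 0.107). Soy was 0.596-fold M + E2 (log2 difference −0.75, SE 0.31, adjusted p = 0.336). Without Milk 3, which had the highest Milk level, M + E2 against Milk passed both thresholds (log2 difference 1.30, adjusted p = 0.0264), as 8.04% of all genes then did. With all 3 Sow libraries, M + E2 against Sow did so as well (log2 difference 1.11, adjusted p = 0.0173), along with 18.1% of all genes.

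RARA, a receptor through which retinoic acid switches genes on, was also highest in M + E2. It measured 117, 123 and 110 CPM there, against 73.2, 76.9 and 101 CPM in Milk 1 to 3 and 68.9, 51.5 and 67.0 CPM in Sow (unnumbered, 2 and 3). Soy had 69.2, 81.5 and 89.5 CPM (unnumbered, 2 and 3) and M + G had 92.6, 90.8 and 105 CPM. The order of the means was M + E2 (117 ± 6.2 CPM, SD, n = 3), M + G (96.3 ± 7.9), Milk (83.5 ± 14.8), Soy (80.1 ± 10.2) and Sow (62.4 ± 9.5), with overlap between Milk and each of M + G and Soy. M + E2 was 1.64-fold Sow, with an interval of 2 SE from 1.29- to 2.09-fold (log2 difference 0.71, SE 0.17, adjusted p = 0.0402), so RARA met the threshold for p and not that for fold. It lost the former when Soy 2 or any 1 M + E2 or M + G library was left out. In those fits 0.0385% to 1.94% of all genes were called, against 5% in the main fit, and the unadjusted p of RARA stayed below 0.05. The log2 difference stayed between 0.67 and 0.75 over all 14 fits that left out 1 library. Those without Sow unnumbered or Sow 3 hold 1 Sow library and are given by this difference only. Against Milk, M + E2 was 1.37-fold (log2 difference 0.46, SE 0.15, adjusted p = 0.207). Soy was 0.715-fold M + E2 (log2 difference −0.48, SE 0.15, adjusted p = 0.209), and M + G was 1.38-fold Sow (log2 difference 0.47, SE 0.17, adjusted p = 0.151).

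The sum of the Sertoli cell markers was higher in M + E2 than in Sow, Milk and Soy, together with both genes. It was 2920 to 3034 CPM in M + E2, against 1671 to 2092 CPM in Sow and 1249 to 2152 CPM in Milk. Soy had 1295 to 1968 CPM and M + G had 1587 to 3002 CPM. Of the 8 markers, 6 were higher in all M + E2 libraries than in all Milk libraries. Among them was AMH, the hormone of immature Sertoli cells (log2 difference 1.24, SE 0.28, adjusted p = 0.175 by edgeR's quasi-likelihood test). CLDN11 and DHH overlapped with Milk and were not higher than in Sow (log2 difference −0.36 and −0.07). AMH (1123 CPM) and INHA (1303 CPM) made up most of the 3016 CPM in M + E2 1. The ratios that follow therefore rest mainly on AMH and INHA. Per 1000 CPM of Sertoli markers, CYP26B1 came to 19.5 to 22.4 CPM in M + E2, 13.9 to 19.0 in Milk, 13.4 to 16.4 in Sow, 15.7 to 29.3 in Soy and 14.6 to 20.7 in M + G. On that scale the lowest M + E2 library (19.5) was close to the highest Milk library (19.0). M + E2 lay above the range of Sow and overlapped with Soy and M + G. RARA came to 37.8 to 40.5 CPM in M + E2, inside the range of Milk (36.6 to 61.5), Soy (35.1 to 69.1) and M + G (35.1 to 57.2), and above that of Sow (30.8 to 34.7). Other marker lists moved in M + E2 as well. Germ cell markers summed to 222 to 285 CPM there, above Sow (166 to 187 CPM) and Milk (103 to 164 CPM). The sum did not stand for the whole list. Of the 5 germ cell markers tested, 2 were higher in M + E2 than in Sow (median log2 difference −0.53). Against Milk 4 were higher (median 0.51). Endothelial markers summed to 525 to 722 CPM, against 211 to 349 CPM in Sow and 408 to 986 CPM in Milk. Leydig cell markers summed to 13015 to 13933 CPM, below all Sow libraries (19273 to 19937 CPM) and inside the range of Milk (10394 to 22194 CPM). Of these, STAR, which brings cholesterol into mitochondria for steroid synthesis, was called as lower in M + E2 than in Sow (log2 difference −1.53, SE 0.41, adjusted p = 0.0449). In stained sections, the paper counted more Sertoli cells and germ cells in M + E2 than in Milk. Leydig cell numbers did not differ significantly between its groups. Those counts were not set against the RNA levels here. The part of Sertoli cells in the levels of CYP26B1 and RARA was not tested beyond these ratios, and that of the other cell types was not tested.

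**Figure D3:**
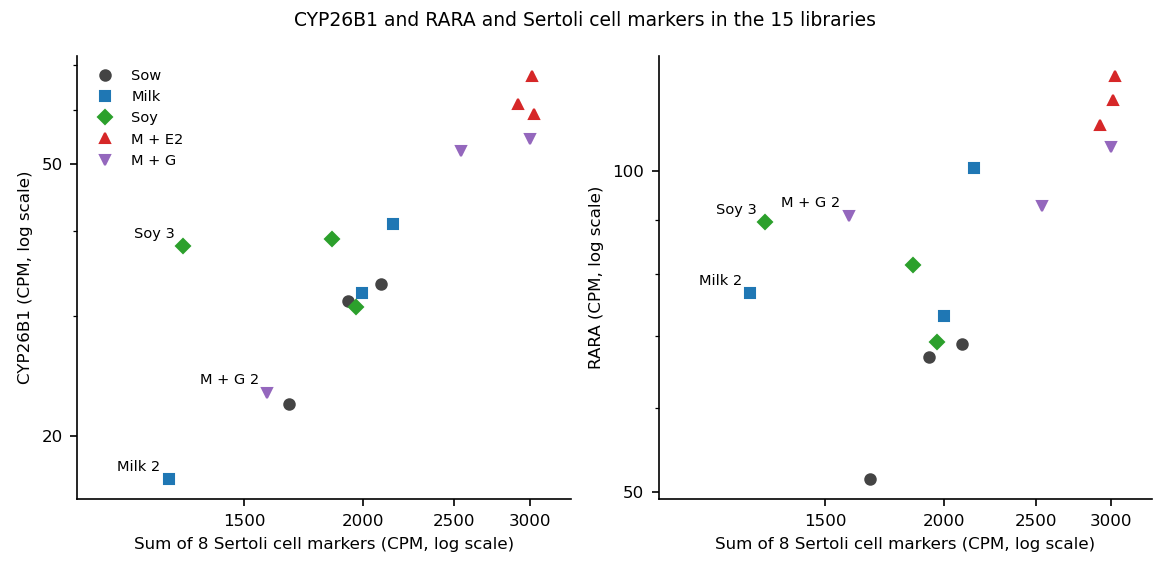
Level of CYP26B1 (left) and RARA (right) against the sum of 8 Sertoli cell markers, in CPM on log axes; each point is 1 of the 15 libraries, with shape and colour for the diet. The 3 M + E2 libraries lie at the top for both genes, where the markers sum to 2920 to 3034 CPM, and M + G 3 lies beside them (3002 CPM of markers).

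RARB, the receptor gene that is itself a known target of retinoic acid, had no difference between diets that passed the test. It measured 5.50, 2.33 and 2.63 CPM in Sow (unnumbered, 2 and 3), 3.39, 4.46 and 4.22 CPM in Milk and 3.67, 5.03 and 3.98 CPM in Soy (unnumbered, 2 and 3). M + E2 had 4.32, 3.06 and 4.57 CPM and M + G had 4.48, 4.90 and 2.89 CPM. The extremes, Sow unnumbered and Sow 2, belonged to the same diet, and the test over the 5 diets gave an adjusted p of 0.995. The interval of 2 SE for M + E2 against Milk ran from 0.627- to 1.51-fold, on 24 to 43 reads per library in M + E2 and 23 to 36 in Milk. Over all 15 libraries RARB was counted on 16 to 47 reads.

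**Figure D4:**
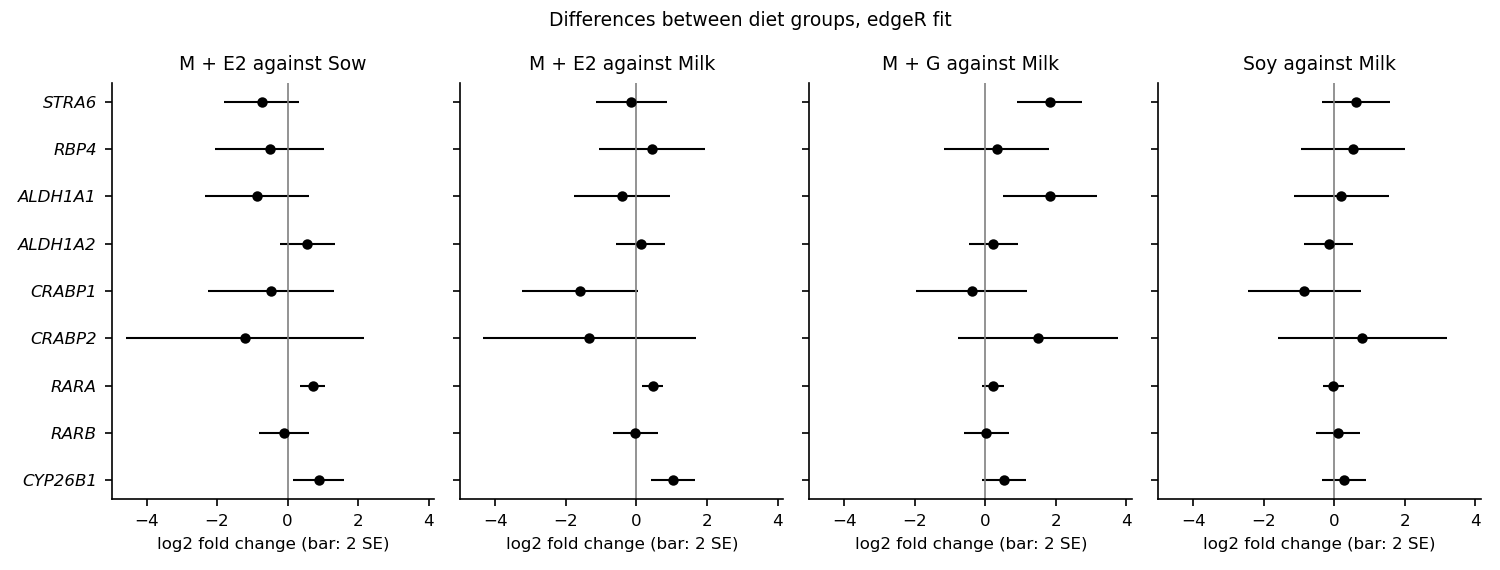
Log2 fold change of the 8 members and RARB in 4 comparisons from the edgeR fit, with bars of 2 SE on either side; genes are in rows and the grey line marks no difference. The bars of CYP26B1 and RARA lie above 0 in M + E2 against Sow and against Milk, those of STRA6 and ALDH1A1 in M + G against Milk, and every bar crosses 0 in Soy against Milk.

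In the comparison of the formulas, Soy against Milk, 0 of the 8 members were called (0% of all genes), 0 had an unadjusted p below 0.05 (2.44% of all genes), and 0 had groups that did not overlap (4.62% of all genes). The fold ranged from 0.554 (CRABP1) to 1.73 (CRABP2), and every interval of 2 SE held 1. The interval was narrow for RARA, from 0.794- to 1.21-fold, and wide for CRABP2, from 0.328- to 9.08-fold. For STRA6 it ran from 0.785- to 2.97-fold and for CYP26B1 from 0.786- to 1.88-fold.

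The comparisons with Sow share the same 2 Sow libraries. In Milk against Sow 0 members were called (0.0192% of all genes) and in Soy against Sow also 0 (0.0128%), with 0 members at an unadjusted p below 0.05 in either (12.1% and 15% of all genes). RARA was the 1 member without overlap in each of them, higher in Milk and in Soy, where 31.1% and 37.3% of all genes did not overlap. It thus lay above both tested Sow libraries in all 4 other groups, by 0.26 on the log2 scale for Milk, 0.23 for Soy, 0.47 for M + G and 0.71 for M + E2. In M + E2 against Sow 0 members were called (5% of all genes), RARA was the only member at an adjusted p of 0.05 or less (7.97% of all genes), and 2 members, RARA and CYP26B1, had an unadjusted p below 0.05 (33.8% of all genes). The groups did not overlap for 3 members (ALDH1A2, CYP26B1 and RARA, all higher in M + E2), against 62.2% of all genes. In M + G against Sow 0 members were called (0.0576% of all genes), 2 (STRA6 and RARA) had an unadjusted p below 0.05 (23.6% of all genes), and the same 2 had groups that did not overlap (53.9% of all genes). With all 3 Sow libraries STRA6 was called there (log2 difference 1.33, adjusted p = 0.0417), as were 10.3% of all genes.

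Against the formula that carried the estradiol, M + E2 had 0 members called (0% of all genes), 2 at an unadjusted p below 0.05 (CYP26B1 and RARA, against 17.7% of all genes) and 3 without overlap (CYP26B1 and RARA higher, CRABP1 lower, against 17.5% of all genes). M + G against Milk had 0 called (0% of all genes), 2 at an unadjusted p below 0.05 (STRA6 and ALDH1A1, against 2.6% of all genes) and 1 without overlap (STRA6, against 4.65%). The median log2 difference of the 8 members was 0.42 there, and −0.01 over all genes. In Soy against M + E2 0 were called (0.147% of all genes), 2 had an unadjusted p below 0.05 (RARA and CYP26B1, lower in Soy, against 13% of all genes) and 3 did not overlap (these and CRABP2, higher in Soy, against 20.6%).

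Further genes of vitamin A metabolism and signalling were taken from a list of 57, of which 56 were in the table and 50 were tested. Over the 5 diets 0 of the 50 reached an adjusted p of 0.05, and 11 had an unadjusted p below 0.05 (22% against 18.1% of all genes). Calls were made only in M + E2 against Sow, where 2 of the 50 were higher and 1 was lower, 6% of the list against 5% of all genes. BCO1, which cleaves carotenoids to retinaldehyde, was 1.99 higher on the log2 scale (SE 0.47, adjusted p = 0.0391), on 14 to 16 reads in M + E2 and 2 to 5 in Sow. CYP2S1, a cytochrome known to act on retinoic acid, was 1.26 higher (SE 0.32, adjusted p = 0.0421), with 30.8, 30.5 and 18.1 CPM in M + E2 and 8.46, 6.85 and 12.7 CPM in Sow. ADH5, of the alcohol dehydrogenase family, was lower by 1.21 (log2 difference −1.21, SE 0.31, adjusted p = 0.0431), with 63.7, 71.9 and 87.5 CPM in M + E2 and 174, 275 and 154 CPM in Sow. Like the threshold met by RARA, these 3 calls were each lost without Soy 2 or any 1 M + E2 or M + G library. The share of all genes called in those fits was 0.0385% to 1.94%, down from 5%. The unadjusted p of the 3 genes stayed below 0.05 in each of those fits.

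A pair of listed genes met the adjusted p in M + E2 against Sow without reaching 2-fold. With the called genes this made 3 of the 50 higher and 2 lower, against 7.97% of all genes at that adjusted p. RDH10, which oxidizes retinol to retinaldehyde, was lower (log2 difference −0.99, SE 0.20, adjusted p = 0.0356), at 15.1, 14 and 19.1 CPM in M + E2, 25.5, 41.4 and 35.9 CPM in Sow and 20.4 to 26.0 CPM in Milk. PPARD, a nuclear receptor that can also bind retinoic acid, was higher (log2 difference 0.83, SE 0.23, adjusted p = 0.0468). STRA8, the gene by which retinoic acid triggers meiosis, measured 0.371 to 1.73 CPM over the 15 libraries. In 6 of 49 listed genes (DHRS3, ALDH1A3, RARG, HOXA5, MEIS1 and MEIS2) the 3 highest libraries were Milk 2, Soy 3 and M + G 2, the pattern of CRABP1. This was 12.2% of the listed genes, against 5.03% of all genes, for libraries singled out after their values were seen. RARG, the remaining retinoic acid receptor, measured 30.8, 35.9 and 29.0 CPM in Milk 2, Soy 3 and M + G 2 and 5.69 to 20.5 CPM in the other 12.

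Likeness between genes was measured as Pearson's r of log2 CPM over the 15 libraries, which share depth and cell composition, and is given as a description. For STRA6, the member with the smallest p over the diets, the 3 genes with the highest r were CFB (0.825), CLDN7 (0.823) and EPCAM (0.819), of which CLDN7, a tight junction protein, and EPCAM are epithelial. Without M + G 2 these fell to 0.680, 0.641 and 0.649. For the other genes the most alike were named after their values were seen. ALDH1A1 was also most like EPCAM (0.804, and 0.603 without M + G 2), CRABP1 was most like THY1 (0.960), TGFBI (0.958) and COL14A1 (0.956), all known from connective tissue cells, and CYP26B1 was most like the nuclear receptor NR5A2 (0.987), DRP2 (0.975) and SORL1 (0.971). ALDH1A2 was most like SH3GL3 (0.890), CRABP2 like GRM8 (0.842), RBP4 like VPS37A (0.746) and RARB like ACTN2 (0.761). RARA was most like ZNF362 (0.987), but 5% of all genes had an r with RARA above 0.895, compared with 0.804 for CYP26B1, 0.670 for CRABP1 and 0.357 for STRA6. Among the members, CYP26B1 went with RARA (r = 0.763, a value that over 5% of all genes exceeded with either gene) and against CRABP1 (−0.599). CRABP1 went with ALDH1A2 (0.694, and 0.55 without M + G 2) and CRABP2 (0.662, and 0.512 without M + G 2). Of these, 0.662 was a value that over 5% of all genes exceeded with CRABP1. ALDH1A1 went with STRA6 (0.704, and 0.444 without M + G 2).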

How the data were processed

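RNA from 15 piglet testes was sequenced, with 3 libraries in each of 5 diet groups as the sample labels name them. One Sow and one Soy column carry no replicate number and were assigned to their group only. Per the study's methods, the authors trimmed the reads, removed bases below Q25 and reads with more than 2 ambiguous nucleotides, mapped them in CLC Genomics Workbench 20.01 to a porcine gene library and then to Ensembl's Sscrofa 11.1 genome, and deposited read counts per gene without normalization. Whether counting used strand, and whether the counts hold reads of the gene library, is not given in the sources used here. The table has 30476 genes, of which 14030 are listed by identifier alone, and the gene name table gave symbols for 810 of these.

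edgeR 4.0.16 and limma 3.58.1 (R 4.3.3) were used on these counts. Genes were kept by filterByExpr (minimum count 10), which left 15634 over the 14 libraries without Sow 2, which the authors excluded for low correlations, and 15328 over all 15. A quasi-likelihood F test was made in a single fit of the 5 groups with TMM scaling, and p-values were adjusted by Benjamini-Hochberg over all genes tested. Calls needed an adjusted p of 0.05 or less and, between 2 groups, at least 2-fold. Intervals are 2 SE on either side. Log2 CPM used a prior count of 1. The fit was tested on simulated counts.

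Libraries with the same number deviated together in Milk and M + G (r of 0.233, 0.510 and 0.425 across genes), with no shared litter or day given. They did not in M + E2 and Milk (−0.339 to −0.0643) or M + E2 and M + G (−0.147 to 0.123). Numbered Soy libraries gave −0.479 and 0.207 with Milk and −0.409 and −0.0225 with M + G. Libraries of unlike number were not compared, so these values do not establish a pairing. Milk 2 and M + G 2, with the r of 0.510, were both rich in smooth muscle marker RNA, whose part in r was not tested. Genes named beyond the members are the listed genes that were called, and the 3 genes most like the member with the smallest p; others were chosen after their values were seen. The members, the pathway and marker lists and the alternatives were chosen with earlier results of these data known. Alternatives were all 3 Sow libraries, each library left out, the replicate block, other filters, DESeq2 1.42.0, edgeR's exact test, a fit of the pair and adjusted p alone; leaving out Milk 2, Soy 3 and M + G 2 together was added after seeing the data. No sequence is shown.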

Additional observations from a re-analysis of the deposited data

How the results depend on the processing

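The number of members at an adjusted p of 0.05 or less over the 5 diets was 0, and it was 2 with all 3 Sow libraries (STRA6, adjusted p = 0.0474, and RARA, 0.0431, with 7.62% of all genes), 3 with DESeq2's test (STRA6, 0.0085, RARA, 0.0086, and ALDH1A1, 0.0425, with 6.77% of all genes) and 0 to 1 with single libraries left out (RARA, 0.0451, without Milk 3, where 6.67% of all genes passed). The number called in M + E2 against Sow was 0, and 1 with all 3 Sow libraries (CYP26B1, with 18.1% of all genes) or by adjusted p alone (RARA, with 7.97%). In M + G against Sow it was 0, and 1 with all 3 Sow libraries (STRA6, with 10.3% of all genes), and in M + E2 against Milk 0, and 0 to 1 with single libraries left out (CYP26B1, without Milk 3, with 8.04%). In each of the other 5 comparisons the number was 0 under every alternative run. No fold change listed for these genes turned its sign. The causes were not tested. With the replicate block, M + G against Milk gave 1.73 for STRA6 and 1.63 for ALDH1A1 on the log2 scale (adjusted p = 0.940 for both, edgeR). The block changed no call of a member in the 4 comparisons it could be run in. Without Milk 2, Soy 3 and M + G 2, an alternative chosen after seeing the data, the member count stayed at 0 throughout. STRA6 in M + G against Milk was then 1.01 and ALDH1A1 0.49. In M + E2 against Sow, groups that lost no library, CYP26B1 kept 0.88 (adjusted p = 0.0194, edgeR) and RARA 0.71 (adjusted p = 0.0234, edgeR). In that comparison 9.95% of all genes were then called, against 5% in the main fit, so the lower adjusted p was not particular to these genes. Depth limits RBP4, CRABP2, STRA6 and RARB, counted on 0 to 100 reads per library.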
